A study of Homo sapiens with 4 samples.

Results

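The cytosolic ribosomal protein genes are the protein-coding genes whose products form the 2 subunits of the ribosome outside mitochondria. They were chosen by symbol, as RPL or RPS followed by a number with the usual suffixes, together with RPLP0, RPLP1, RPLP2 and RPSA and without the RPS6K kinases. The rule matched 86 genes of the RefSeq annotation, and 38 of them had at least 1 peak in the NSUN2 RIP-seq lists, out of 12396 protein-coding genes with a peak. Of these 38 genes, 26 encode proteins of the large (60S) subunit and 12 encode proteins of the small (40S) subunit. The rule used symbols and no measured value, although it was chosen with earlier results of these data known.

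In RIP-seq an antibody pulls a protein out of a lysate and the RNA that comes with it is sequenced. The protein was NSUN2, an enzyme that writes 5-methylcytosine into tRNA and other RNA. The cells were PANC-1, an established human line of pancreatic ductal adenocarcinoma, labelled wild-type, and were given sodium lactate at 30 mM or ddH2O, the vehicle, for 24 h. Each condition had 1 immunoprecipitation (IP) library and 1 input library of the lysate before the pull-down, 4 libraries in all. No value therefore has a replicate error, and no difference between conditions could be tested. Intervals of shares and ratios cover counting error only, and intervals of medians cover variation over genes only. There was no control-antibody library among the 4. Peaks were called by the authors for each IP over the matching input, which gave 48104 peaks with lactate and 95785 with ddH2O, and the reads behind the merged peaks summed to 1945000 and 3536821 once those on MT-RNR2 and MALAT1 were left out. The depth of the input libraries is unknown. Of the 5 markers of ductal epithelium looked for, KRT7, KRT8, KRT18 and KRT19 had a peak in both lists and EPCAM with ddH2O alone, while none of the 4 acinar and 3 endocrine markers had one. Among 3 leukocyte markers CD68 had a peak in both lists and PTPRC with ddH2O alone, and of 3 fibroblast markers only COL1A1 had one, with lactate.

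Ribosomal protein mRNAs are among the most abundant and most heavily translated messages of a growing cell. Most of them start at a cytosine followed by an unbroken run of pyrimidines, the 5′ terminal oligopyrimidine (TOP) motif, through which the mTOR pathway and LARP1 control their translation as a group. Many of their genes are short, carry small nucleolar RNAs (snoRNAs) in their introns, and have left processed pseudogenes across the genome.

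The transcript starts are shown because they are a feature that most ribosomal protein mRNAs share and that the choice by symbol did not use. A start was called a pyrimidine start when its first base was C and at least 5 pyrimidines followed without a break, that first base included. RefSeq starts on GRCh38.p14 were matched for 69 of the 86 genes, and 48 of the 69 (69.6%, 95% Wilson interval 57.9 to 79.2%) had a pyrimidine start, against 988 of 15843 protein-coding genes (6.24%) and 6 of 69 mitochondrial ribosomal protein genes (8.7%). Where a gene had several starts, the one with the longest run was taken. Each line gives 10 bases before the start and 20 from it, in sense, with the pyrimidine run that begins at the start in capitals. RPL28, RPL35, RPL11, RPS9 and RPSA are members with many reads, RPS19 is the member with the lowest lactate over ddH2O ratio among those with at least 50 reads, and RPL7L1 and RPS27L are paralogs without such a run.
RPL28 (chr19:55385922-55385951, plus strand): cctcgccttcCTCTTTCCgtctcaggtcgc
RPL35 (chr9:124861938-124861967, minus strand): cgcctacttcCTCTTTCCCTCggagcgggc
RPL11 (chr1:23691796-23691825, plus strand): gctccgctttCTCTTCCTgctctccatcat
RPS9 (chr19:54200848-54200877, plus strand): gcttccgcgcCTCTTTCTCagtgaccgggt
RPSA (chr3:39406710-39406739, plus strand): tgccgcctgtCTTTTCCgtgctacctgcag
RPS19 (chr19:41860245-41860274, plus strand): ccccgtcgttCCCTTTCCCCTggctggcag
RPL7L1 (chr6:42879606-42879635, plus strand): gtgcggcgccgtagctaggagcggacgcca
RPS27L (chr15:63157458-63157487, minus strand): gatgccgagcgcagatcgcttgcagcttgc

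A pyrimidine start was found both in genes with a peak and in genes without one. It was present in 17 of 27 matched members with a peak (63%, 44.2 to 78.5%) and in 31 of 42 matched genes without a peak (73.8%, 58.9 to 84.7%), and these intervals overlap. With ddH2O, the highest fold over input had a median of 3.15 over 17 members with such a start and of 3.28 over 9 members without one. With lactate the medians were 3.74 over 10 members and 4.57 over 4.

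A smaller share of ribosomal protein genes than of all protein-coding genes had a peak, in either condition. With lactate, 18 of 86 genes had one (20.9%, 13.7 to 30.7%), against 9448 of 20056 protein-coding genes (47.1%). With ddH2O the count was 37 of 86 (43.0%, 33.1 to 53.6%), against 11705 genes (58.4%). The 17 genes with a peak in both lists included RPLP0, RPL6, RPL7L1, RPL8, RPL13A, RPL21, RPL23A, RPL27A, RPL28, RPL31, RPL36A and RPL39L of the large subunit and RPS3, RPS9, RPS27L and RPSA of the small one. A further 20 genes had a peak with ddH2O alone, and RPL4, which lines the exit tunnel for the growing peptide, was the one gene that the authors' annotation gave a peak with lactate alone. The peaks listed for RPL4 and RPL27A lay outside the RefSeq spans of these genes, within ZWILCH and DENND2B. Over all protein-coding genes the ddH2O list was also the longer one, as it held 2776 protein-coding genes that the lactate list lacked and the lactate list held 519 that the ddH2O list lacked.

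The share was higher for the large subunit than for the small one in both lists, and this difference was not tested. With lactate 13 of 52 large-subunit genes (25%, 15.2 to 38.2%) and 5 of 34 small-subunit genes (14.7%, 6.45 to 30.1%) had a peak, and with ddH2O these were 25 (48.1%, 35.1 to 61.3%) and 12 (35.3%, 21.5 to 52.1%), so the intervals overlapped in both lists. Ribosomes of mitochondria have their own proteins, encoded by the MRPL and MRPS genes. Of those 77 genes, 47 (61.0%, 49.9 to 71.2%) had a peak with lactate and 61 (79.2%, 68.9 to 86.8%) with ddH2O, and neither interval reached that of the cytosolic set. Of 86 nuclear genes of oxidative phosphorylation, another set of short and abundant mRNAs, 33 (38.4%, 28.8 to 48.9%) and 47 (54.7%, 44.2 to 64.7%) had one. A peak is called against the input, so a gene without one may still have reads in the IP library, and the files used here give no reads for the 48 genes without a peak.

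The members with a peak included some of the windows richest in reads. Reads were counted by the authors in windows of 2000 bases around the summit of each merged peak, so reads of different genes are per equal length, and the densest window of a gene was taken as its value. RPS2, which lies at the site where mRNA enters the small subunit, had 1916 reads with lactate and 4048 with ddH2O. RPL8, a large-subunit protein close to the catalytic centre, had 1913 and 2896 reads. Large-subunit members followed.

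RPL35, found at the exit tunnel, had 1499 reads with lactate and 3009 with ddH2O. RPL11, which binds the 5S rRNA and, outside the ribosome, the p53 regulator MDM2, had 1197 and 2826 reads. RPL28 had 1331 and 2173 reads. All 5 had more reads with ddH2O than with lactate, as had 35 of the 38 members (92.1%). These are reads before scaling, from libraries whose sums differed 1.82-fold, and 82.4% of the 12396 protein-coding genes with a peak, and 99.8% of the 451 with at least 1000 reads, also had more with ddH2O. The exceptions were RPL31 with 57 reads with lactate and 51 with ddH2O, RPL4 with 12 and 5, and RPL17 with 9 and 7.

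Reads in the densest window ran over a wide range. The median member had 346 reads over both IP libraries (quartiles 33.8 and 1250), against 57 (15 and 184) for all 12396 protein-coding genes with a peak. At least 1000 reads were reached by 15 of the 38 members (39.5%) and by 451 of all these genes (3.64%). At the other end, 8 members had under 20 reads, among them RPL14, RPS26 and RPS29, which had no read with lactate and 9, 8 and 7 with ddH2O. Genes enter this count only through a called peak, so the reads of the 48 genes without a peak are not in it. A window can also hold reads of a neighbouring peak, since 52 of the 90 merged peaks on the members had a window that shared bases with another window of the same gene.

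Many reads did not go with a high fold over input. The fold is the authors' ratio of IP signal to input signal at a peak. In its densest window RPL35 had a peak with ddH2O at a fold of 1.06 and none with lactate. RPL11 had 1.15 with ddH2O, and RPL8 had 1.15 with lactate and 1.18 with ddH2O. RPS2 stood at 1.56 with ddH2O, and RPL28 at 3.15 was the highest of these 5 genes.

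Among genes with at least 1000 reads, the peak in the densest window had a median fold of 1.71 for 15 members with ddH2O, with 8 of them (53.3%) under 2. Over 423 other protein-coding genes in that range the median was 4.29, and 19.1% were under 2. With lactate the medians were 2.24 for 6 members and 3.87 for 341 other genes. The 6 nuclear genes of oxidative phosphorylation in that range had a median of 2.1 with ddH2O. From 100 to under 1000 reads the medians with ddH2O were 3.02 over 10 members and 4.29 over 4038 other genes. With lactate the order in that range was the other way, with a median of 6.60 over only 2 members, at 2.99 and 10.2, against 4.03 over 3131 other genes.

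**Figure D1:**
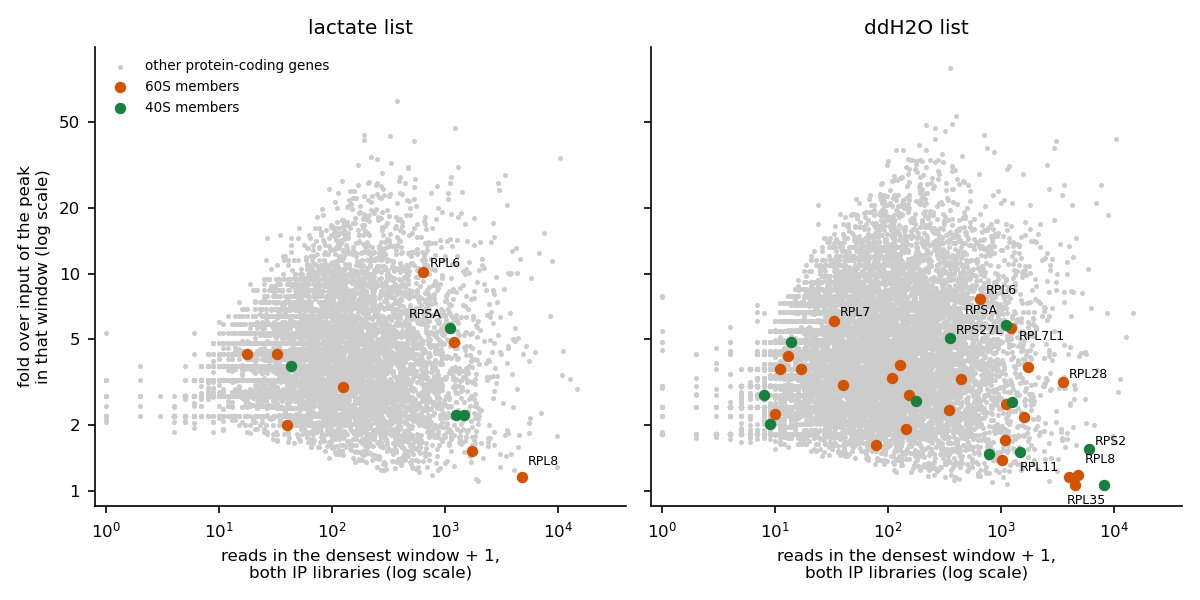
Each point is a protein-coding gene, placed by the reads plus 1 in its densest window over both IP libraries and by the fold over input of the peak in that window, both on log axes, for the lactate list (left) and the ddH2O list (right). Members of the large subunit are orange, those of the small subunit green and other genes grey. In the ddH2O list RPL35, RPL11 and RPL8 lie at the lower right edge with folds between 1.06 and 1.18, and RPL6 stands higher at 7.66.

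Over all peaks, the median fold of the members was 3.16 with lactate and 2.58 with ddH2O, against 3.24 and 3.03 for peaks on all protein-coding genes. Taking the highest fold of each gene, the median was 3.74 over 18 members with lactate (95% interval of the median over genes 2.99 to 4.85) and 3.15 over 37 members with ddH2O (2.26 to 4.07). All protein-coding genes with a peak had medians of 4.76, inside the members' interval, and 5.38, above it. A highest fold grows with the number of peaks, which averaged 1.78 per gene with lactate and 2.08 with ddH2O for the members and 4.2 and 6.51 for all protein-coding genes. Mitochondrial ribosomal protein genes, with 3.64 and 3.34, and nuclear genes of oxidative phosphorylation, with 3.55 and 3.30, lay within the members' intervals. A fold of at least 4 was reached by 8 of 18 members with lactate (44.4%) and 14 of 37 with ddH2O (37.8%), against 60.2% and 65.8% of protein-coding genes. Every listed peak was selected for enrichment, so these medians describe called peaks and not the whole set of mRNAs.

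RPL6 had the highest fold of all members in both lists. RPL6 is a large-subunit protein, and its exon peak stood at 10.2 with lactate (chr12:112408347-112408697) and 7.66 with ddH2O (chr12:112408351-112408769). The summits were 1 base apart, and the deposited −log10 p-values of 92.9 and 180 were among the highest of the members. The window held 196 reads with lactate and 452 with ddH2O. A second peak of RPL6 in a 5′ UTR exon, called with ddH2O alone, had a fold of 5.13, and its window of 188 and 428 reads shared bases with the first.

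RPSA, a small-subunit protein that also serves as a laminin receptor, had its highest fold in an exon near the 3′ end of the gene. That peak stood at 5.60 with lactate (chr3:39411731-39412400) and 5.82 with ddH2O (chr3:39411738-39412403), with 347 and 771 reads. RPL7L1, a paralog of RPL7, had 4.85 with lactate (chr6:42886473-42887056) and 5.63 with ddH2O (chr6:42886454-42887086), with 425 and 791 reads. These 3 genes had their highest fold at the same place in both conditions. The authors' annotation put the RPL7L1 peak in a 3′ UTR with lactate and in an exon with ddH2O, although the coordinates nearly coincide.

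RPS27L, a paralog of RPS27, reached 5.03 with ddH2O in an exon peak of 91 and 259 reads. Several other high folds rested on fewer reads. RPL39L, a paralog of RPL39 best known from testis, reached 6.34 with lactate and 4.93 with ddH2O in an intron peak whose window held 12 and 14 reads. RPL31, which sits at the exit tunnel, reached 6.29 with ddH2O in an intron peak of 1 and 13 reads. RPL7 reached 6.07 with ddH2O in an exon peak of 9 and 23 reads, and had none with lactate. RPS9, a small-subunit protein at the mRNA entry channel, reached 5.88 with ddH2O in an exon peak near the 5′ end, on 10 and 22 reads, where lactate gave 3.21. RPL28 reached 5.30 with lactate in its last exon, with 56 reads there against 39 with ddH2O, and this place had no peak with ddH2O. Its peak lay on a stretch that RefSeq also gives to UBE2S.

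The peaks of ribosomal protein genes lay mostly in exons and untranslated regions. Of the 32 peaks with lactate, 16 were in exons (50%), 7 in 3′ UTRs, 1 in a 5′ UTR and 8 in introns (25%, 13.3 to 42.1%). Of the 77 with ddH2O, 37 were in exons (48.1%), 19 in 3′ UTRs, 4 in 5′ UTRs and 17 in introns (22.1%, 14.3 to 32.5%). Peaks on all protein-coding genes had 61.5% and 61.2% in introns, above both intervals. The length of introns in the genes was not taken into account. A q-value below 0.05 was given to 20 of the 32 peaks (62.5%) and 55 of the 77 (71.4%), against 44.6% and 50.9% of peaks on protein-coding genes, and with ddH2O the intron share fell to 10.9% among such peaks.

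Many summits lay towards the 3′ end. Of the summits on the RefSeq span of the gene, 14 of 29 with lactate (48.3%, 31.4 to 65.6%) and 32 of 69 with ddH2O (46.4%, 35.1 to 58.0%) were in the last 25% of its length, against 34.4% and 32.2% over protein-coding genes. The ddH2O interval lies above the value for all genes and the lactate interval includes it. A larger share of the members' peaks than of all peaks on protein-coding genes lay in exons and UTRs. This difference in region was not taken into account, and its part in the positions was not tested. The first 25% held 17.2% and 21.7% of the members' summits. The libraries were made with the SMART-Seq v4 kit, which primes on the poly(A) tail, and the part of that priming in the positions was not tested. For RPL8, RPL35 and RPS2 the peak lay in the 3′ UTR, at relative positions of 0.975, 0.974 and 0.956 along the gene, where 0 is the 5′ end and 1 the 3′ end.

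**Figure D2:**
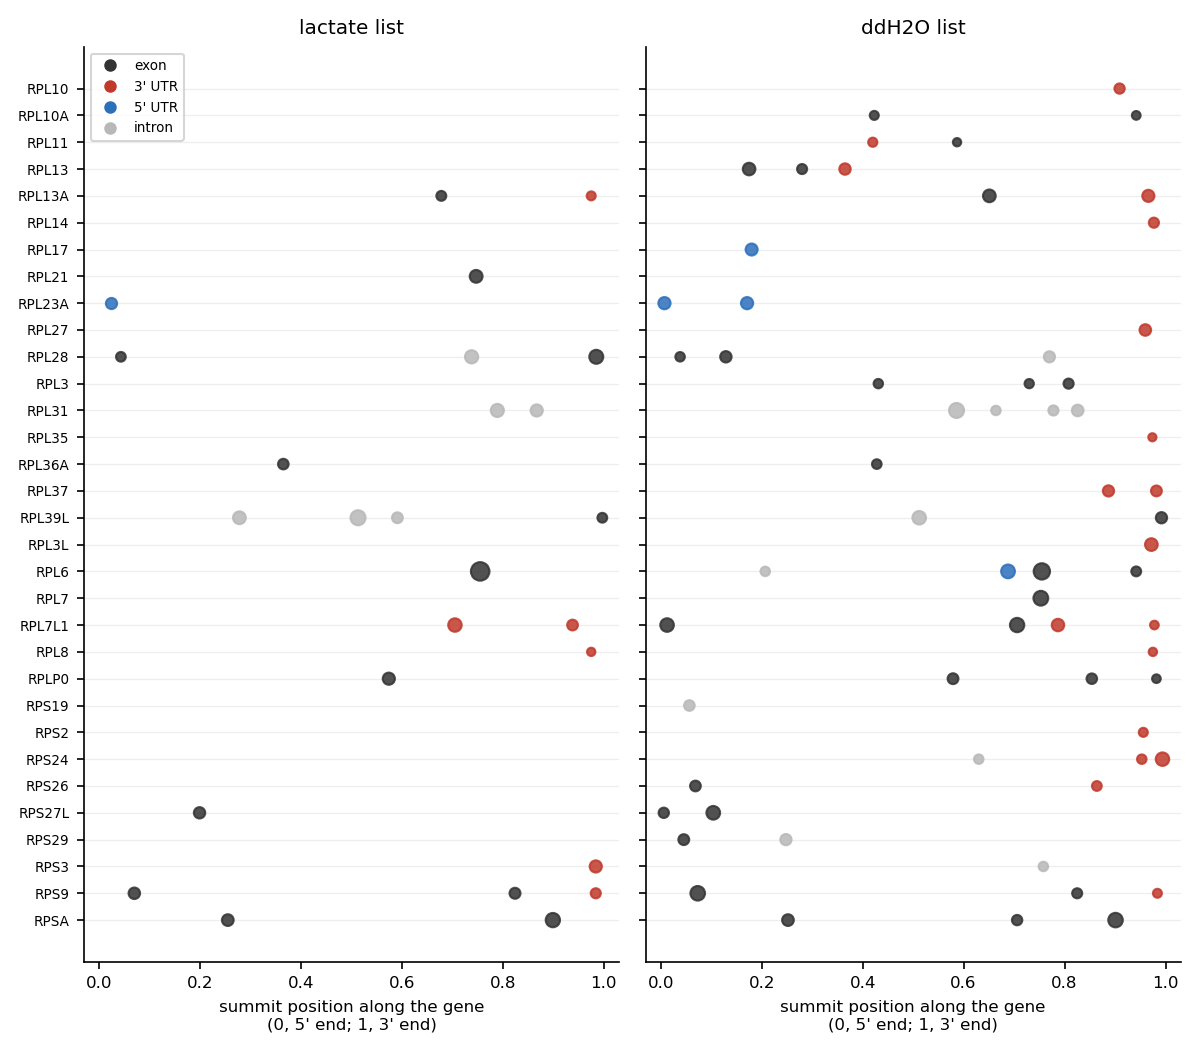
Each of the 32 rows is a member, and each point is the summit of 1 peak at its relative position along the RefSeq span, from the 5′ end (0) to the 3′ end (1), for the lactate list (left) and the ddH2O list (right). Colour gives the region and the size of a point grows with its fold. The last 25% of the length holds 12 of the 26 summits drawn on the left and 30 of the 63 on the right, and the largest point is the RPL6 exon peak at 0.755.

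The peaks of both lists were set side by side by their overlap. With an overlap of 1 base or more, 19 of 32 lactate peaks (59.4%, 42.3 to 74.5%) met a ddH2O peak, and 20 of the 77 ddH2O peaks (26.0%, 17.5 to 36.7%) met a lactate peak. Over all protein-coding genes the shares were 58.5% and 29.9%, inside these intervals. In the 19 pairs of overlapping peaks on the same members, the median distance between summits was 22 bases and 13 pairs were within 50 bases, which is a description, since pairs chosen for overlapping have near summits by that choice. RPL8 had its summits at the same base, and the widest distance was 409 bases at the 3′ end of RPL7L1.

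The ratio of lactate over ddH2O was taken from the authors' normalized read densities, on a log2 scale, and windows were counted as past 2-fold only with at least 20 reads over both IP libraries. The authors' scaling added more to the ratio of a dense window than to that of a thin one. For that reason each ratio is also given with the libraries scaled by their sums of reads outside MT-RNR2 and MALAT1, which adds 0.86 to every window. Of the 63 windows of the members, 2 were over 2-fold higher with lactate (3.17%) and 6 over 2-fold lower (9.52%). Over all 37925 windows the background was 7.65% higher and 18.6% lower, with a median log2 ratio of -0.20 against 0.01 for the members. With the library sums, 4 windows of the members were higher and 3 lower (6.35% and 4.76%), against 17% and 8.77% of all windows, with medians of -0.16 and 0.13. The members' shares past 2-fold at this minimum of reads were smaller than those of all windows in both directions and under both scalings, a difference that was not tested.

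Other thresholds moved these shares. At a fold over 1.5 there were 9 windows higher (14.3%) and 14 lower (22.2%), against 16.2% and 32.5% of all windows. At a fold over 4 there was none of the 63 in either direction, against 1.12% and 4.55%. With at least 50 reads, 2 of 53 windows were higher (3.77%) and 5 lower (9.43%), against 3.71% and 11.1% of all windows, so the members then stood close to the background. With no minimum of reads, 6 of 90 were higher (6.67%) and 23 lower (25.6%), against 13.9% and 38.6%.

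The windows past 2-fold lower were on 5 genes. RPS19, the small-subunit protein most often mutated in Diamond-Blackfan anaemia, had 32 reads with lactate and 144 with ddH2O in an intron window, a log2 ratio of -1.48 (counting interval -2.11 to -0.95) and -1.27 by library sums. RPL3, a large-subunit protein near the catalytic centre, had 42 and 174 reads in an exon window, at -1.31 (-1.86 to -0.84) and -1.16 by sums. RPL27 had 92 and 352 reads in its 3′ UTR, at -1.03 (-1.39 to -0.71) and -1.06 by sums. These 3 stayed past 2-fold under both scalings. Each of the 3 had its peak with ddH2O alone, so it entered the comparison through the condition where it was higher.

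RPL23A, which lies beside the exit tunnel, had 28 reads with lactate and 98 with ddH2O in its first 5′ UTR window, at -1.18 (-1.87 to -0.59), and 27 and 93 in the second, at -1.16. By library sums both were under 2-fold, at -0.91 and -0.88, and these windows shared bases. RPSA had 5 and 16 reads in an exon window, at -1.31 (-3.29 to 0.03) and -0.64 by sums. Another exon window of RPSA moved the other way, so the gene had no single direction.

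The windows past 2-fold higher were on RPL28 and RPSA. The last exon of RPL28, the stretch shared with UBE2S, had 56 reads with lactate and 39 with ddH2O, a log2 ratio of 1.08 (0.47 to 1.72) and 1.37 by sums. This place had a peak with lactate alone. The RPSA exon window had 32 and 20 reads, at 1.08 (0.25 to 1.98) and 1.51 by sums. With library sums, 2 intron windows of RPL31 also passed, at 1.02 and 1.23. These 2 windows shared bases, and their peaks lay on the span of TBC1D8. The counting interval of none of the 63 windows lay wholly past 2-fold under either scaling.

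With 1 window for each gene, of any number of reads, the place of the members relative to other genes turned with the scaling. The median log2 ratio over the densest windows of the 38 members was -0.03 (interval over genes -0.44 to 0.25), and -0.19 (-0.37 to -0.03) by library sums, against -0.26 and -0.03 over all protein-coding genes with a peak, so the members' median lay above that of all genes with the authors' scaling and below it by library sums. With the authors' scaling 21 of the 38 members were below 0 (55.3%), against 63.1% of all protein-coding genes with a peak, and by library sums 26 were (68.4%), against 51.4%, so this comparison turned with the scaling too. Of the 38, 8 had under 20 reads in this window. In the 15 members with at least 1000 reads the median was 0.28 with the authors' scaling and -0.16 by library sums, so the sign turned with the scaling. It turned likewise over the 451 protein-coding genes in that range, from 0.22 to -0.17. With the authors' scaling 4 of the 15 members were below 0 (26.7%), against 25.1% of those genes, and by library sums 12 of the 15 (80.0%), against 68.1%.

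Among members with at least 50 reads, the highest ratios in the densest window belonged to dense windows, RPL31 aside. RPL8 stood at 0.92 with the authors' scaling and 0.26 by library sums. RPS9, with 649 reads with lactate and 832 with ddH2O at its 3′ UTR, stood at 0.88 and 0.50. RPL31 stood at 0.76 and 1.02, in an intron window. RPL28 stood at 0.73 and 0.16. All 4 were above 0 under both scalings.

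The lowest ratios in the densest window belonged to windows of fewer reads. Beside RPS19, RPL23A and RPL27, they included RPS27L, with 91 reads with lactate and 259 with ddH2O and a log2 ratio of -0.64 under both scalings. All 4 were below 0 under both scalings. RPL23A aside, these windows had a peak with ddH2O alone.

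Of 10 paralogs looked for, 4 had a peak with ddH2O (40%, against 43.0% of all 86 genes), namely RPL7L1, RPL39L, RPL3L and RPS27L. With lactate 3 had a peak (30%, against 20.9%), while 6 had none in either list. Among these 6, RPL36AL lies outside the symbol rule and is not among the 86 genes. The counting intervals of both shares, 16.8 to 68.7% with ddH2O and 10.8 to 60.3% with lactate, include those of all 86 genes. RPL3L, which replaces RPL3 in striated muscle, had 1 peak with ddH2O in its 3′ UTR at a fold of 4.17, on 2 reads with lactate and 10 with ddH2O. RPS27L, a p53-inducible paralog of RPS27, had 2 exon peaks with ddH2O, the higher at a fold of 5.03, and 1 with lactate at 3.11 in another exon. RPL39L had its densest window at the last exon, with 14 and 25 reads, where the peak also lay on the pseudogene RPL39P19. Without these 4 paralogs the members' median of the highest fold with ddH2O moved from 3.15 to 3.01.

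Of the 3 proteins of the P-stalk, the arm of the large subunit that recruits translation factors, RPLP0 had peaks and RPLP1 and RPLP2 had none. RPLP0 had an exon peak at 3.73 with lactate and 2.74 with ddH2O, with summits 22 bases apart, and its densest window held 361 and 735 reads, at a log2 ratio of 0.12 and -0.16 by library sums, a change of sign. Of 4 ribosomal proteins looked for because they bind MDM2, RPL11 had peaks, with ddH2O alone, and RPL5, RPL23 and RPS7 had none. RPL11 stood at a log2 ratio of 0.22 and at -0.38 by library sums, so its sign turned with the scaling.

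Of 11 ribosomal protein genes that are mutated in Diamond-Blackfan anaemia, a failure of red cell formation, 5 had a peak with ddH2O and none had one with lactate (0 of 11, interval 0 to 25.9%). With ddH2O their share of 45.5% was near the 43.0% of all 86 genes, and with lactate the interval includes the 20.9% of all 86. They included RPS19, RPL11, RPS26 and RPS24, with highest folds of 2.58, 1.64, 2.66 and 4.85. RPS24 had 5 reads with lactate and 8 with ddH2O and RPS26 had 0 and 8, under the minimum of 20. The RPL4 peak, which lay off the span of that gene, had 12 and 5 reads, also under it.

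Some peaks assigned to members overlapped other genes. Of the 109 peaks in both lists, 11 on 6 genes had their summit off the RefSeq span of the member. The RPL4 peak (chr15:66507568-66507970) lay on the span of ZWILCH, and the RPL27A peaks of both lists lay on that of DENND2B. All 9 peaks of RPL31 lay on the span of TBC1D8. The RPL4 and RPL27A peaks lay outside the spans of those 2 members, so their values are not evidence of reads on RPL4 or RPL27A. With only peaks whose summit lay on the span of the member, 16 genes had a peak with lactate and 35 with ddH2O, 15 of them in both lists, in place of 18, 37 and 17. RPL21 lost its ddH2O peak under this limit, and RPL4 and RPL27A had no peak left. Where a peak lay on the spans of 2 genes, as for RPL31, the strand of the reads is not given in the sources used here, so reads of the pair cannot be told apart.

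Intronic snoRNAs and pseudogenes were the other overlaps. A snoRNA gene was overlapped by 8 of the 109 peaks, on 6 genes that included RPL13A, RPL17, RPL3, RPL23A and RPS2. Of 29 ribosomal protein genes that hold an annotated snoRNA gene, 15 had a peak with ddH2O (51.7%, 34.4 to 68.6%), and of the 57 others 22 (38.6%, 27.1 to 51.6%), with overlapping intervals. Pseudogenes named after ribosomal protein genes held 50 peaks with lactate and 116 with ddH2O, with median folds of 3.57 and 3.03, and 25 of the 38 members had such a peak on at least 1 of their pseudogenes. With ddH2O these came from 44 parent genes, 23 of which had no peak of their own. How reads that match a gene and its pseudogenes were placed is not given in the sources used here.

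Other genes of the translation pathway were taken from lists. Of 4 ribosomal proteins outside the symbol rule, 2 had peaks in both lists. One was RACK1, a scaffold protein on the small subunit, which had 3203 reads with lactate and 6586 with ddH2O and folds of 1.89 and 3.05, at a log2 ratio of 0.64 and -0.18 by library sums. Of 18 translation genes with TOP mRNAs, 12 (66.7%, 43.7 to 83.7%) had a peak with lactate and 14 (77.8%, 54.8 to 91.0%) with ddH2O, and their median highest folds were 3.54 and 3.82. EEF2, the factor that moves the ribosome along the mRNA, had folds of 11.5 and 13.3.

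Genes that build ribosomes, as opposed to those that form them, were found with a peak more often. Of 30 such genes, 25 (83.3%, 66.4 to 92.7%) had one with lactate and 26 (86.7%, 70.3 to 94.7%) with ddH2O, with median highest folds of 4.42 and 6.87. Both intervals lie above those of the ribosomal protein genes. NCL, which encodes nucleolin, had folds of 12.4 and 30.1, with 2008 and 4857 reads. In windows of at least 20 reads, 2 of 79 were over 2-fold higher with lactate (2.53%), against 3.17% of the ribosomal protein windows and 7.65% of all windows. Over 2-fold lower were 23 (29.1%), against 9.52% and 18.6%. By library sums 6 were higher (7.59%), against 6.35% and 17%, and 14 lower (17.7%), against 4.76% and 8.77%. All these windows came from the 26 genes with a peak, and windows of the same gene can share bases. With 1 densest window per gene, of any number of reads, 1 of these 26 genes was over 2-fold higher and 3 were lower. Over all 12396 protein-coding genes with a peak, 891 were higher and 2965 lower, all by the authors' scaling.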

How the data were processed

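RIP-seq of NSUN2 in PANC-1 cells gave 1 IP and 1 input library per condition. The submitters' processing notes name fastp 0.20.1, HISAT2 2.1.0, MACS2 2.2.7.1, bedtools 2.29.2, HOMER 4.11.1, DiffBind and the builds GRCh38 and hg38. The authors called peaks per library and deposited for each a fold enrichment (a ratio of IP over input), a −log10 p-value and a q-value, all used as given. They then merged the lists with MAnorm and deposited a normalized read density, a signal, for each IP library. Their M, A and P columns hold their own comparison and were not used.

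Members are genes with a peak in at least 1 list. Members and lists were chosen with earlier results of these data known. The reads of each window were recovered from its densities, as reads plus 1 over a window of 2 kb on a straight line (slope 0.17, intercept -0.20), and 99.998% of 116484 windows gave whole numbers within 0.05. This step was tested on simulated data. No pseudocount beyond that read was added. Windows overlapping a peak by 1 base took its gene (bedtools 2.31.1). Past 2-fold meant a log2 density ratio beyond 1 in size, at 20 reads or more. Genes named were the 6 with the most reads, the 5 lowest and 5 highest ratios at 50 reads or more, the 4 highest folds per list, members with a peak in 1 list where 10 or fewer, and the paralog, P-stalk, MDM2 and anaemia groups; members named outside this rule, such as RPL3, RPL14 and RPL17, were named after their values were seen. Some genes that the rule names are not reported here, and their rows are left out of the plots of reads and positions while all counts and medians hold them. Intervals are Wilson for shares, exact binomial for ratios and order statistics for medians, at 95%. Alternatives were other thresholds on q, fold, reads and overlap, exon and UTR peaks, covered bases, library sums and other windows per gene. Scripts ran in Python 3.11.15 (scipy 1.17.1, pandas 2.3.3, numpy 2.4.6, matplotlib 3.10.9).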

Additional observations from a re-analysis of the deposited data

How the results depend on the processing

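The counts of members past 2-fold depended on scaling and threshold. Windows higher with lactate numbered 2, and 4 with library sums, 9 at a fold over 1.5, 0 at a fold over 4 and 6 with no minimum of reads. Windows lower with lactate numbered 6, and 3, 14, 0 and 23 under the same settings. A minimum of 50 reads, exon and UTR peaks and an overlap of 50% left these counts within 1.5 times. At a fold of at least 4, the lactate list kept 8 of its 18 genes and the ddH2O list 14 of its 37, and the ddH2O share of intron peaks fell from 22.1% to 10.9% at a q-value below 0.05. The median log2 ratio of -0.03 was -0.19 with library sums, -0.10 over all windows of a gene and -0.06 over the 13 members without a pseudogene peak. Shares of overlapping peaks and median folds stayed within their intervals. Gene counts and an intron share restricted to summits on the RefSeq span, and a median fold without the paralogs, were chosen after seeing the data. The cause of these moves was not tested. With 1 library a group, no replicate could be left out. No paired analysis was possible because each group had 1 library. Under 20 reads the counting intervals were wide, as for RPS24 with 5 and 8 reads (-2.52 to 1.23 on the log2 scale).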
